A study of Homo sapiens with 6 samples.

Results

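A set of 10 genes of prostaglandin and eicosanoid metabolism were followed in MCF10CA1a cells grown on stiff (8000 Pa) and soft (500 Pa) hydrogels. They were chosen by symbol, namely PLA2G4A, PTGS1, PTGS2, PTGES, PTGES2, HPGD, ABCC4, PTGER4, ALOX5 and ALOX15, and all 10 were found among the 26484 gene symbols listed for each library. They were picked with the raw counts at both stiffnesses and in each replicate already known, so their values, and the calls that a fit over all genes gave them, are a description and no independent test. MCF10CA1a is a tumorigenic, HRAS-transformed member of the MCF10A human breast series, and it is a single line. The 8000 Pa group and the 500 Pa group held 3 biological replicates each, with numbers 1 to 3 shared between the groups. In both groups the cells sat on hydrogel dishes coated at 0.14 mg/ml with a growth factor-reduced basement membrane extract, Matrigel, received fresh medium on day 4 and gave RNA, which the labels call cytosolic, on day 5.

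Eicosanoids are signalling lipids made from arachidonate. Cytosolic phospholipase A2 frees arachidonate from membranes, cyclooxygenases turn it into prostaglandin H2, and terminal synthases make prostaglandin E2 and the other prostanoids from that. Prostaglandin E2 leaves the cell through transporters, acts on G protein-coupled EP receptors and is inactivated by an oxidising dehydrogenase. Lipoxygenases take arachidonate along a separate branch to leukotrienes and hydroxylated fatty acids. In breast epithelium and breast tumours the inducible cyclooxygenase and prostaglandin E2 are the best studied parts of the pathway.

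Total counts ran from 8305601 to 18779742 per library. Levels are CPM, each gene's counts relative to the library's total, after TMM scaling, which corrects for differences in library composition. The first principal component, with 49.1% of the variance, placed 8000 Pa replicate 1 at 62.3 and 500 Pa replicate 1 at 2.75. The replicate 2 libraries lay at 6.32 (8000 Pa) and 11.8 (500 Pa). The replicate 3 libraries lay at -35.4 (8000 Pa) and -47.8 (500 Pa). Epithelial identity was plain in every library, with 9 of 9 markers counted and KRT8 at 5952 to 12388 CPM at 8000 Pa and 7637 to 14854 CPM at 500 Pa. Of 9 leukocyte markers PTPRC, CD3E and MS4A1 had 0 counts in all libraries. CD14, CD68 and LYZ were counted in every library and passed in neither fit, and the list summed to 26.6 to 47.3 CPM at 8000 Pa and 24.6 to 50.9 CPM at 500 Pa. CD68, the highest of them, had 12.2, 21.9 and 22.5 CPM in 8000 Pa replicates 1, 2 and 3, against 18.4, 13.9 and 35.4 CPM in 500 Pa replicates 1, 2 and 3. Of the mast cell and eosinophil markers 5 of 7 had 0.

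Of the 10 genes, 9 had at least 1 count and 7 passed the low-count filter used for fitting. PTGS2, ALOX5 and ALOX15 did not pass it. In the edgeR quasi-likelihood fit with stiffness alone, 0 of the 7 were called at a false discovery rate (FDR) of 0.05, and 0% of all 11517 genes tested were called. Deviations from group means correlated positively across genes in all same-numbered pairs, but weakly for replicate 2 (0.184). The unlike pair of 8000 Pa replicate 1 and 500 Pa replicate 2 gave 0.199. Beside the fit with stiffness alone is therefore given a fit with the replicate number as an added term, called the replicate block. In that fit 2 of the 7, PTGS1 and ABCC4, were called higher at 8000 Pa, against 0.530% of all genes called in either direction and 0.260% called higher. Since the genes were chosen with these values known, nothing is read from that count. PTGS1 was also the 1 gene of the 7 whose groups did not overlap, as was the case, in either direction, for 6.87% of all genes tested and, with 8000 Pa higher, for 4.02%.

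**Figure D1:**
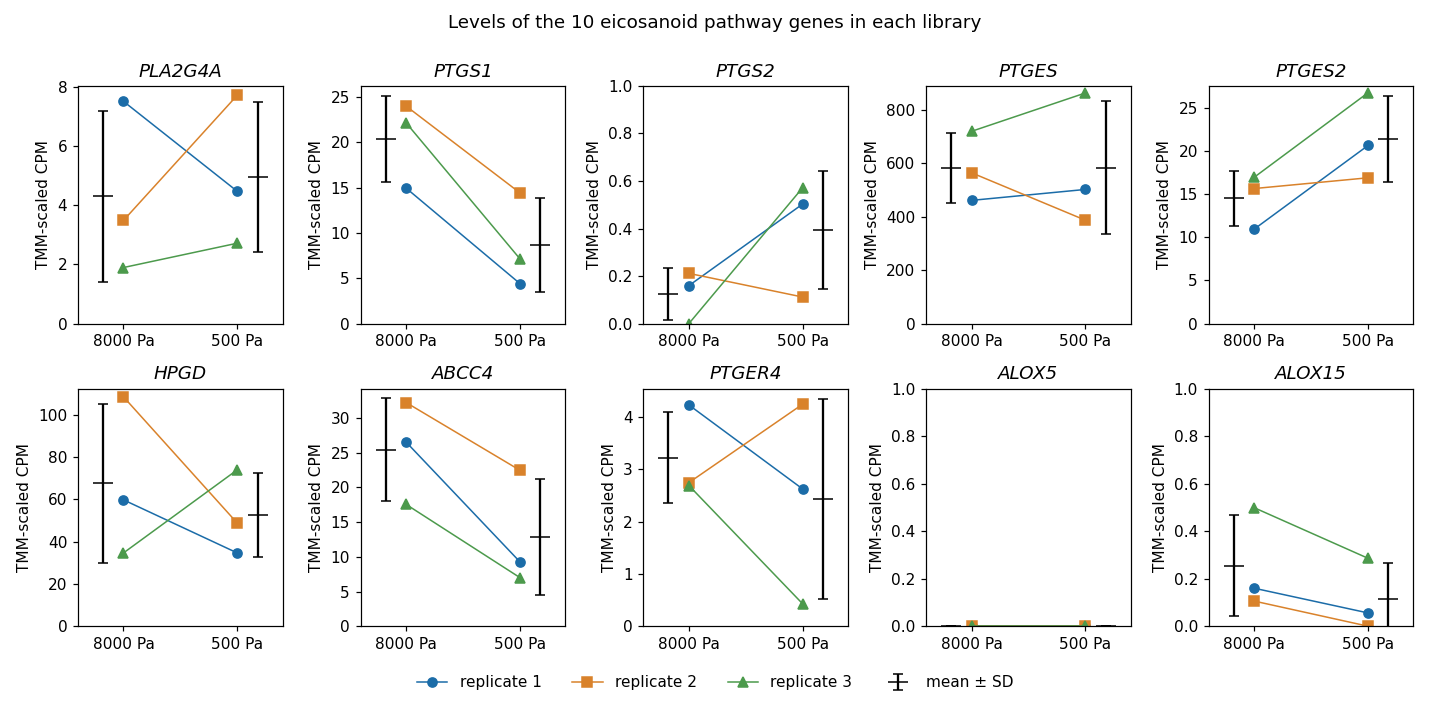
TMM-scaled CPM of each of the 10 genes (vertical axes, each starting at 0) in the 8000 Pa libraries (left) and the 500 Pa libraries (right), with lines joining libraries of the same replicate number and bars for mean ± SD (n = 3 each). PTGS1 and ABCC4 slope down to 500 Pa in all 3 pairs and PTGES2 slopes up. ALOX15 also slopes down, on at most 5 counts a library, and ALOX5 lies at 0 throughout.

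Cyclooxygenases come first, because they commit arachidonate to prostanoids. PTGS1 encodes the cyclooxygenase that many tissues express constitutively. It had 187, 227 and 222 counts in 8000 Pa replicates 1, 2 and 3, against 79, 129 and 50 counts in 500 Pa replicates 1, 2 and 3. In CPM this was 14.9, 24.0 and 22.1 at 8000 Pa, against 4.41, 14.4 and 7.15 at 500 Pa. Every 8000 Pa library was above every 500 Pa library, but the lowest at 8000 Pa (replicate 1) and the highest at 500 Pa (replicate 2) lay close together. The means were 20.4 ± 4.78 CPM at 8000 Pa and 8.66 ± 5.17 CPM at 500 Pa (SD, n = 3 each), and the log2 fold change was 1.24 (SE 0.44) with stiffness alone and 1.36 (SE 0.30) with the replicate block. Within the pairs, log2 of 8000 Pa over 500 Pa was 1.72, 0.73 and 1.61 for replicates 1, 2 and 3. PTGS1 lies on chromosome 9 from 122370530 to 122395703, plus strand (GRCh38). GENCODE also places AL162424.1 over it on the same strand, a symbol that is not among those counted. PTGS1 was called only in fits with the block, and there the call was lost without replicate 3, where the log2 fold change was 1.29. Without 500 Pa replicate 2 the fit with stiffness alone gave 1.83 in place of 1.24.

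PTGS2, the inducible cyclooxygenase, was close to undetected. It had 2, 2 and 0 counts in 8000 Pa replicates 1, 2 and 3, and 9, 1 and 4 counts in 500 Pa replicates 1, 2 and 3. The sums were 4 counts over the 8000 Pa libraries and 14 over the 500 Pa libraries, and no CPM exceeded 0.572. A count of 3, taken as the floor for a count of 0, equals 0.240 to 0.317 TMM-scaled CPM in the 8000 Pa libraries and 0.168 to 0.429 in the 500 Pa libraries, so PTGS2 was above the floor only in 500 Pa replicates 1 and 3. The groups overlapped.

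Of the reads assigned to either cyclooxygenase, PTGS2 took few at both stiffnesses. At 8000 Pa its share was 1.06% of 189 counts in replicate 1, 0.873% of 229 in replicate 2 and 0 of 222 in replicate 3. At 500 Pa it was 10.2% of 88 counts in replicate 1, 0.769% of 130 in replicate 2 and 7.41% of 54 in replicate 3. The exact Clopper-Pearson 95% intervals reached up to 3.77%, 3.12% and 1.65% at 8000 Pa, against 18.5%, 4.21% and 17.9% at 500 Pa. PTGS1 therefore supplied most cyclooxygenase reads in each of the 6 libraries. These intervals cover counting error only and leave out the spread between replicates. Reads without molecular identifiers are not independent molecules, so the intervals may be too narrow even for counting error.

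The sequence upstream of the cyclooxygenase starts is shown because the pair differed so widely in level, with those of PTGES, the most abundant of the 10 genes, and ABCC4, the other gene called with the block. Each line gives the 250 bases before an annotated RefSeq start (GRCh38.p14), 5′ to 3′ on the gene's strand. Capitals mark exact matches on either strand to any of 4 motifs, and in these windows no matches overlap. The TATA box was searched as TATAAA. The GC box was searched as GGGCGG. The CCAAT box was searched by the letters of its name. The core of the cAMP response element was searched as TGACG. PTGS1 has a pair of annotated starts.
PTGS1, first start, chr9:122370283-122370532, plus strand: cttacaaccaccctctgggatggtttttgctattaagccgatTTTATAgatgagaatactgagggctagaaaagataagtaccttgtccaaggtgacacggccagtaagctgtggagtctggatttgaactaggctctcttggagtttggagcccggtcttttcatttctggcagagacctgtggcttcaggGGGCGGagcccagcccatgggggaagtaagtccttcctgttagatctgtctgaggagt
PTGS1, second start, chr9:122375052-122375301, plus strand: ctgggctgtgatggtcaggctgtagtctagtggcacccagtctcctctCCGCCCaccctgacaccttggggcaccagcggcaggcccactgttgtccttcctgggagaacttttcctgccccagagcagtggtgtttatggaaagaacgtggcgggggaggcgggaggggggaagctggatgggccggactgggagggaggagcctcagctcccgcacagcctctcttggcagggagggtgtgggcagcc
PTGS2, chr1:186680424-186680673, minus strand: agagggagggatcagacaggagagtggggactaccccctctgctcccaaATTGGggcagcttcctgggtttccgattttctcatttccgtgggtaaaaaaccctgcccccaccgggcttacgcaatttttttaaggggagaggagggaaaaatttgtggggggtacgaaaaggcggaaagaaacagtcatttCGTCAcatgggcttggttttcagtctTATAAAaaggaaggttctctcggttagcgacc
PTGES, chr9:129753043-129753292, minus strand: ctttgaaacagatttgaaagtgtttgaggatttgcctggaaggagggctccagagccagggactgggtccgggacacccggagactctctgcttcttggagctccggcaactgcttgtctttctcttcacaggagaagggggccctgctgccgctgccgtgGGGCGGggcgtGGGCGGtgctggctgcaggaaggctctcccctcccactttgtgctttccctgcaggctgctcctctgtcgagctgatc
ABCC4, chr13:95301452-95301701, minus strand: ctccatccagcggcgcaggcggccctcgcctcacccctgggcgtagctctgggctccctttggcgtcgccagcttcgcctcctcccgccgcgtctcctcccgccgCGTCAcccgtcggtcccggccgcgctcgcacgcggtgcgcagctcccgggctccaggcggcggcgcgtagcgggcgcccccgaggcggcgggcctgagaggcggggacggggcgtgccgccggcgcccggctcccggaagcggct

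The PTGS2 window holds TATAAA on the gene's strand from 32 to 27 bases before the start, and on the opposite strand the cAMP response element core from 58 to 54 bases before it and CCAAT from 201 to 197 bases before it. In the first PTGS1 window TATAAA occurs only on the opposite strand, from 208 to 203 bases before the start, and a GC box lies from 58 to 53 bases before it. The second PTGS1 window holds 1 GC box, the PTGES window 2 GC boxes, and the ABCC4 window 1 core of the cAMP response element. Among 35116 RefSeq windows of the same length, 10.7% hold the TATA box, 42.6% the GC box, 32.0% the CCAAT box and 21.2% the cAMP response element core, each on either strand. RefSeq windows were found for 8 of the 10 genes, and ALOX5 and ALOX15 were not matched. A match is a run of letters, and no binding was measured here.

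PLA2G4A, the cytosolic phospholipase that releases arachidonate upstream of the cyclooxygenases, was weakly expressed. It stood at 7.51, 3.49 and 1.89 CPM in 8000 Pa replicates 1, 2 and 3, against 4.47, 7.71 and 2.72 CPM in 500 Pa replicates 1, 2 and 3. The groups overlapped, with replicate 1 higher and replicates 2 and 3 lower at 8000 Pa. The log2 fold change was -0.20 (SE 0.54) with stiffness alone and -0.26 (SE 0.42) with the block. Without 8000 Pa replicate 1, its highest 8000 Pa library, the fold change with stiffness alone was -0.89. Its sign turned to 0.20 without 8000 Pa replicate 3 and to 0.24 without 500 Pa replicate 2.

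Prostaglandin E synthases convert prostaglandin H2 to prostaglandin E2. PTGES, the inducible membrane-bound synthase, was the most abundant of the 10 genes by a wide margin. It had 462, 565 and 721 CPM in 8000 Pa replicates 1, 2 and 3, against 503, 388 and 864 CPM in 500 Pa replicates 1, 2 and 3. The means were 582 ± 130.3 CPM at 8000 Pa and 585 ± 249 CPM at 500 Pa (SD, n = 3 each), with replicate 3 the highest in both groups. Its log2 fold change was -0.01 (SE 0.31) with stiffness alone and 0.05 (SE 0.24) with the block. Without 500 Pa replicate 3, the highest library, it was 0.43. PTGES lies on chromosome 9 from 129738331 to 129753047, minus strand.

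PTGES2, a second membrane-associated prostaglandin E synthase, was lower at 8000 Pa in all 3 pairs without passing either fit. It had 10.9, 15.6 and 16.9 CPM in 8000 Pa replicates 1, 2 and 3, against 20.6, 16.9 and 26.7 CPM in 500 Pa replicates 1, 2 and 3. The highest 8000 Pa library and the lowest 500 Pa library overlapped, both at 16.9 CPM after rounding. The log2 fold change was -0.56 (SE 0.34) with stiffness alone and -0.56 (SE 0.28) with the block. Among all genes tested, 15.2% were lower in all 3 pairs. Its longest annotated transcript has the highest GC content of the 10 genes, at 65.7%, and with an offset for each library's trend on GC content the log2 fold change was -0.19 in both fits.

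HPGD, the dehydrogenase that inactivates prostaglandin E2, ranked second in length-scaled level. It had 59.8, 108.6 and 34.7 CPM in 8000 Pa replicates 1, 2 and 3, against 34.7, 48.9 and 74.0 CPM in 500 Pa replicates 1, 2 and 3. Both the highest and the lowest library were at 8000 Pa, and the groups overlapped. In the pairs the log2 difference was 0.78 and 1.15 for replicates 1 and 2 and -1.09 for replicate 3 (SD 1.20). The SE with the block rests on a spread trend shared by all genes, not on this SD. The fitted log2 fold change was 0.37 (SE 0.40) with stiffness alone and 0.31 (SE 0.25) with the block. Without 8000 Pa replicate 2 the fit with stiffness alone gave -0.15, the opposite sign, and with the block but without replicate 3 it was 1.02.

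ABCC4, an efflux pump that carries prostaglandin E2 out of the cell among other organic anions, was higher at 8000 Pa in all 3 pairs. It had 26.5, 32.2 and 17.5 CPM in 8000 Pa replicates 1, 2 and 3, against 9.28, 22.5 and 7.002 CPM in 500 Pa replicates 1, 2 and 3. The groups overlapped, because 500 Pa replicate 2 exceeded 8000 Pa replicate 3. The means were 25.4 ± 7.40 CPM at 8000 Pa and 12.9 ± 8.35 CPM at 500 Pa (SD, n = 3 each). The log2 fold change was 0.98 (SE 0.44) with stiffness alone and 1.11 (SE 0.28) with the block, and the pairs gave 1.50, 0.52 and 1.30 for replicates 1, 2 and 3. All 3 pairs were higher at 8000 Pa for 14.6% of all genes tested. The call with the block was lost in DESeq2, and without replicate 1 (0.90) or replicate 3 (1.07). Without 500 Pa replicate 2 the fit with stiffness alone gave 1.63 in place of 0.98. ABCC4 lies on chromosome 13 from 95019829 to 95301475, minus strand.

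PTGER4 encodes EP4, a prostaglandin E2 receptor that couples to adenylyl cyclase. It had 53, 26 and 27 counts in 8000 Pa replicates 1, 2 and 3, against 47, 38 and 3 counts in 500 Pa replicates 1, 2 and 3. In CPM this was 4.23, 2.75 and 2.69 at 8000 Pa, against 2.63, 4.25 and 0.429 at 500 Pa. Apart from 500 Pa replicate 3, which had the 3 counts, the groups covered the same range. The log2 differences within pairs had an SD of 1.42, which the SE with the block does not measure. The log2 fold change was 0.38 (SE 0.61) with stiffness alone and 0.62 (SE 0.50) with the block. Without 500 Pa replicate 3 the fit with stiffness alone gave -0.01, and with the block but without replicate 2 it was 1.36. TTC33 overlaps PTGER4 on the opposite strand, and the strand setting of the counting is not given in the sources used here, so reads of the overlap cannot be told apart.

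The lipoxygenases of the list were near absent. ALOX5, which starts leukotriene synthesis in leukocytes, had 0 counts in every library. ALOX15, which oxygenates arachidonate and linoleate in eosinophils and some epithelia, had 2, 1 and 5 counts in 8000 Pa replicates 1, 2 and 3, and 1, 0 and 2 counts in 500 Pa replicates 1, 2 and 3. The summed counts of ALOX15 were 8 at 8000 Pa and 3 at 500 Pa, too few to pass the low-count filter, so no fold change is given.

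**Figure D2:**
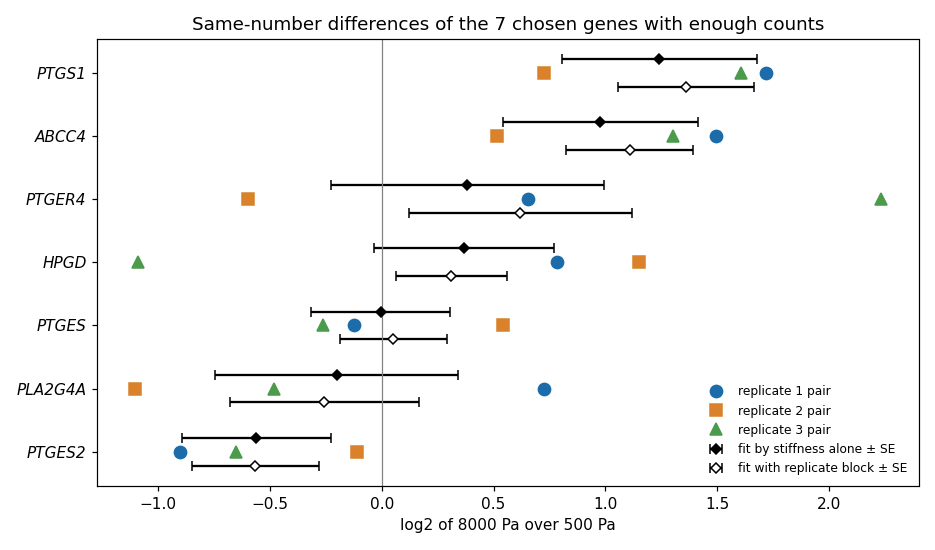
Log2 of 8000 Pa over 500 Pa for the 7 genes that passed the low-count filter, with 1 coloured point per same-numbered pair and diamonds for the fitted fold change ± SE (filled, stiffness alone; open, replicate block). PTGS1 runs from 0.73 to 1.72 and ABCC4 from 0.52 to 1.50, whereas the PTGER4 pairs spread from -0.60 to 2.23.

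Endothelial and platelet markers were looked at, since PTGS1 is also abundant in platelets and endothelium. Of 6 endothelial markers, the adhesion molecules PECAM1 and CDH5 passed with the block as higher at 8000 Pa. PECAM1 had 204, 241 and 212 CPM in 8000 Pa replicates 1, 2 and 3, against 98.01, 146 and 89.2 CPM in 500 Pa replicates 1, 2 and 3. The summed level of the list was 213 to 258 CPM at 8000 Pa and 100.2 to 156 CPM at 500 Pa. CDH5 had 4.71, 10.2 and 16.1 CPM in 8000 Pa replicates 1, 2 and 3, against 1.12, 3.47 and 3.14 CPM in 500 Pa replicates 1, 2 and 3, a log2 fold change of 1.99 (SE 0.39) with the block. Neither gene's groups overlapped. ESAM, another junction protein of the list, was at 4.23 to 8.37 CPM at 8000 Pa and 4.14 to 7.43 CPM at 500 Pa, overlapping, with a log2 fold change of 0.03 (SE 0.37) with the block. TEK had 0 counts, VWF stayed at or below 0.429 CPM and KDR at or below 0.423 CPM. The summed level of the 4 platelet markers was 0.160 to 1.30 CPM at 8000 Pa and 0.671 to 0.857 CPM at 500 Pa, with PF4 at 0. Among them ITGA2B was lower at 8000 Pa without overlap, on at most 12 counts a library. It had 0.0799, 0.423 and 0.598 CPM in 8000 Pa replicates 1, 2 and 3, against 0.671, 0.671 and 0.715 CPM at 500 Pa. The part of these markers in the PTGS1 and ABCC4 differences was not tested, and in bulk RNA fewer cells of a type and less RNA per cell cannot be told apart.

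Scaled by exon length, the 10 genes spanned a wide range of levels. Over the 6 libraries PTGES averaged 308 CPM per kb, and its lowest library (204 CPM per kb) was above the highest library of every other gene of the list. HPGD followed at 10.9 CPM per kb and PTGES2 at 5.91, and their ranges, 6.27 to 19.6 and 3.60 to 8.79, overlapped. PTGS1 at 2.50, ABCC4 at 2.22 and PLA2G4A at 1.61 CPM per kb came next in mean level, with overlapping ranges. The highest libraries of PTGS1 (4.14) and ABCC4 (3.73) lay inside the PTGES2 range. PTGER4 averaged 0.714 CPM per kb, and its highest library (1.07) was above the lowest of PTGS1 (0.762). ALOX15 (0.0541) and PTGS2 (0.0493) were lowest of those with any count. At 8000 Pa PTGS1 ranked above PLA2G4A in mean level (3.51 against 1.49 CPM per kb), and at 500 Pa below it (1.50 against 1.73 CPM per kb). At 500 Pa that gap was smaller than the SD of either gene. Single libraries went the other way in both groups. PLA2G4A ranked above PTGS1 in 8000 Pa replicate 1, and PTGS1 above PLA2G4A in 500 Pa replicate 3.

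**Figure D3:**
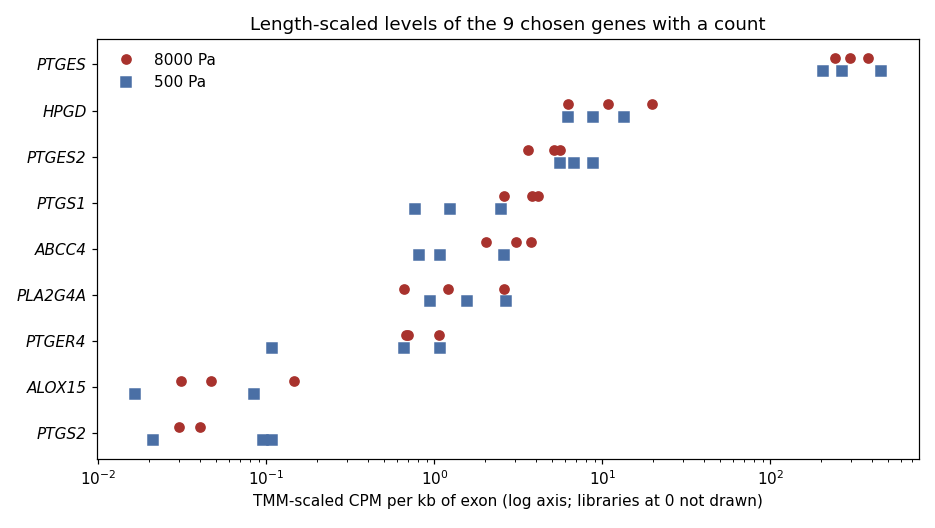
TMM-scaled CPM per kb of exon (log axis) in each 8000 Pa library (circles, upper row of each gene) and 500 Pa library (squares, lower row) for the 9 genes with a count; libraries at 0 are not drawn. PTGES stands alone at 204 to 456 CPM per kb, and PTGS2 and ALOX15 lie at or below 0.146.

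The balance of synthesis and inactivation transcripts was set out as ratios of length-scaled levels. PTGES over HPGD was 22.5, 15.2 and 60.6 in 8000 Pa replicates 1, 2 and 3, against 42.2, 23.1 and 34.0 in 500 Pa replicates 1, 2 and 3. The groups overlapped, with the highest and the lowest ratio both at 8000 Pa. PTGES over PTGS1 was 94.4, 72.0 and 99.4 at 8000 Pa, against 348, 82.1 and 369 at 500 Pa. At 500 Pa the ratio of replicate 2 lay inside the 8000 Pa range and those of replicates 1 and 3 far above it. These ratios rest on the same counts as the levels above.

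Across the replicate numbers the genes did not vary together. Replicate 3 held the highest PTGES and PTGES2 and the lowest PLA2G4A, ABCC4 and PTGER4 of its group at both stiffnesses. Transcript GC content was 56.9% for PTGES and 65.7% for PTGES2, against 39.0% for PLA2G4A, 43.2% for ABCC4 and 51.7% for PTGER4. HPGD, at 38.8%, was lowest of its group in 8000 Pa replicate 3 but highest in 500 Pa replicate 3. PTGS1, at 50.8%, was neither highest nor lowest in replicate 3 at either stiffness. With the GC offset and the replicate block the log2 fold change was 1.29 for PTGS1, 0.94 for ABCC4 and 0.18 for PTGES. Within groups, the SD of log2 CPM was lowest for PTGES2 at 0.33 and highest for PTGER4 at 1.09, and the median over all genes tested was 0.45.

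For PTGES and HPGD, the genes of most similar profile were those with the smallest root mean square difference of centred log2 CPM over the 6 libraries, among 8703 genes of at least 5 CPM on average. PTGES was closest to PYROXD2 (0.062), MAP4K2 (0.073) and RASSF1 (0.081), where the median gene was at 0.52. PYROXD2 had 9.98, 11.9 and 14.7 CPM in 8000 Pa replicates 1, 2 and 3, against 11.5, 8.83 and 19.3 CPM in 500 Pa replicates 1, 2 and 3. HPGD had no comparably close match, with DAPK1 at 0.25, RAB11FIP1 at 0.26 and SGMS1 at 0.29, where the median gene was at 0.69. These distances share the 6 libraries and their depth and GC trends and are descriptions only.

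The wider pathway was read through 89 further genes in 7 roles, of which 67 had a count and 42 passed the low-count filter. None passed at an FDR of 0.05 in edgeR with stiffness alone (0 of 42, with 2 at an unadjusted p under 0.05, where 2.45% of all genes tested lay) or with the replicate block (0 of 42, with 6 at an unadjusted p under 0.05, where 10.6% of all genes tested lay). DESeq2 called 0 without and 0 with the block, and limma-voom 0. The median log2 fold change was 0.07 with stiffness alone and 0.04 with the block, against 0.01 and -0.01 over all genes tested. Of the 42, 24 had a fold change above 0 in each fit.

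Among genes of arachidonate release and handling, 13 of 24 were tested and 0 passed. ANXA1, a phospholipase-inhibiting annexin, averaged 439 ± 178 CPM at 8000 Pa and 416 ± 107 CPM at 500 Pa (SD, n = 3 each). LPCAT3, which puts arachidonate back into phospholipids, averaged 206 ± 26.8 CPM at 8000 Pa and 208 ± 63.8 CPM at 500 Pa. PLA2G16, a phospholipase and acyltransferase, averaged 200.2 ± 26.5 CPM at 8000 Pa and 178 ± 26.3 CPM at 500 Pa. None of these means differed by more than the SD of either group.

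Of 8 other prostanoid synthases, 4 were tested and 0 passed, and PTGDS, HPGDS and PTGIS had 0 counts in every library. PTGES3, a cochaperone also described as a cytosolic prostaglandin E synthase, averaged 407 ± 118 CPM at 8000 Pa and 352 ± 135 CPM at 500 Pa. AKR1B1, an aldose reductase with prostaglandin F synthase activity, averaged 716 ± 107 CPM at 8000 Pa and 629 ± 169.9 CPM at 500 Pa. AKR1C3, a reductase that also makes prostaglandin F, averaged 475 ± 25.3 CPM at 8000 Pa and 382 ± 9.91 CPM at 500 Pa, without overlap and without passing (adjusted p = 0.713 by edgeR with the block).

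In prostaglandin inactivation and transport, 8 of 9 genes were tested and 0 passed. AKR1C1 and AKR1C2, close relatives of AKR1C3 that act on steroids and prostaglandins, also did not overlap between groups. AKR1C1 averaged 823 ± 94.7 CPM at 8000 Pa and 578 ± 16.4 CPM at 500 Pa, with a log2 fold change of 0.51 (SE 0.23, adjusted p = 1.000 by edgeR with stiffness alone and 0.425 with the block). AKR1C2 averaged 1378 ± 109 CPM at 8000 Pa and 1098 ± 84.9 CPM at 500 Pa. The AKR1C genes are similar in sequence, so how reads were split between them is uncertain. CBR1, a carbonyl reductase, averaged 138 ± 19.7 CPM at 8000 Pa and 147 ± 10.4 CPM at 500 Pa.

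Receptors were the emptiest part of the pathway. PTGER1, PTGER2 and PTGER3, the other EP receptors, had 0 counts in every library, as did PTGDR and PTGIR, so PTGER4 was the only EP receptor gene with a count. PPARG, a nuclear receptor that some prostaglandin metabolites bind, averaged 65.7 ± 2.70 CPM at 8000 Pa and 64.4 ± 17.9 CPM at 500 Pa and was the 1 receptor of 9 to be tested. Of the 7 leukotriene and oxo-eicosanoid receptors 0 were tested, and 5 had 0 counts.

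In the lipoxygenase and leukotriene branch 8 of 14 genes were tested and 0 passed. LTA4H, which makes leukotriene B4, averaged 131 ± 23.8 CPM at 8000 Pa and 119 ± 22.1 CPM at 500 Pa, although ALOX5 upstream of it had no counts. The microsomal glutathione transferases MGST2 and MGST3 averaged 115 ± 19.3 and 179 ± 33.5 CPM at 8000 Pa, against 116 ± 21.0 and 194 ± 11.7 CPM at 500 Pa. In the cytochrome P450 branch 8 of 18 genes were tested and 0 passed. There EPHX1, an epoxide hydrolase, averaged 55.6 ± 34.8 CPM at 8000 Pa and 57.0 ± 12.0 CPM at 500 Pa. EPHX2, the soluble epoxide hydrolase, averaged 22.5 ± 6.30 CPM at 8000 Pa and 26.7 ± 1.63 CPM at 500 Pa. CYP4F12, a fatty acid hydroxylase, averaged 28.9 ± 11.5 CPM at 8000 Pa and 31.7 ± 27.5 CPM at 500 Pa.

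**Figure D4:**
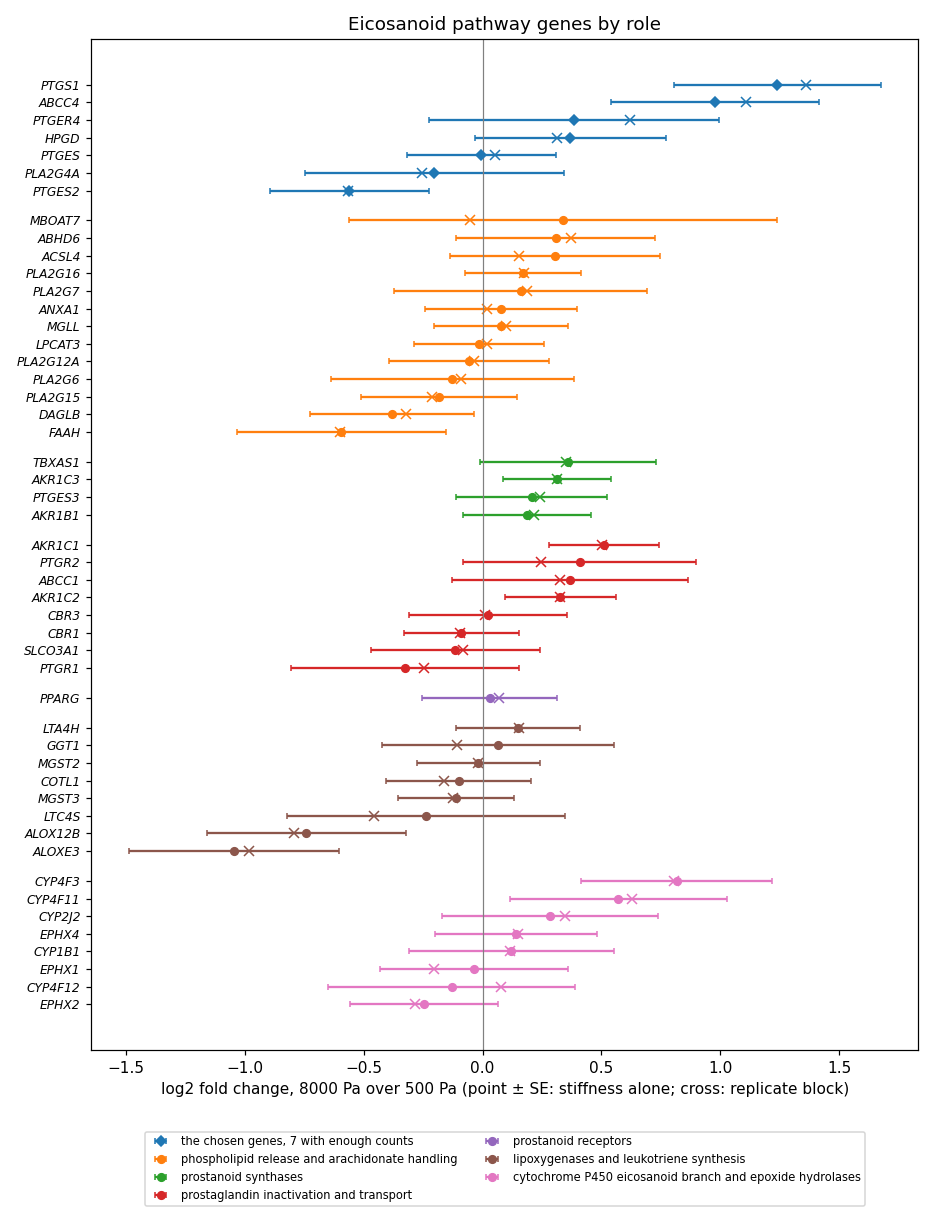
Fitted log2 fold change of 8000 Pa over 500 Pa for the 7 fitted genes of the chosen list (diamonds, top) and 42 other pathway genes in 6 roles (circles), with SE from the fit with stiffness alone and a cross for the fit with the replicate block. The fold changes of the other pathway genes run from -1.05 (ALOXE3) to 0.82 (CYP4F3), and PTGS1 and ABCC4 lie at 1.24 and 0.98.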

How the data were processed

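RNA sequencing was analysed for 6 MCF10CA1a libraries, 3 at 8000 Pa and 3 at 500 Pa, grouped by title. For each library the authors deposited raw whole-number counts per gene symbol and a TMM-scaled log2 value, per the file headers. The submitters' processing notes name HISAT2 2.1.2, HTSeq 0.11.4, limma, DESeq2 and GRCh38; no source used here gives the annotation, strand setting or multi-mapping rule. The deposited log2 values, present for 8593 genes, differed from those computed here by at most 0.116 over the 7257 genes compared, and were not used further.

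Counts were fitted with edgeR 4.0.16 in R 4.3.3 after filterByExpr (minimum count 10, minimum total 15) and TMM scaling, testing stiffness by quasi-likelihood, with p-values adjusted after Benjamini and Hochberg over all 11517 genes. A positive log2 fold change means higher at 8000 Pa. For edgeR, the SE was taken as the absolute log2 fold change divided by the square root of the quasi-likelihood F statistic. Log2 CPM used a prior count of 2, also for the differences within pairs. Alternatives were the replicate block, DESeq2 1.42.0, limma-voom (limma 3.58.1), other scalings, no filter, a GC offset and left-out libraries. Deviations from group means correlated across genes at 0.409, 0.184 and 0.516 in same-numbered pairs 1, 2 and 3. Pairs of different numbers ran from -0.499 to 0.199, the highest being 8000 Pa replicate 1 with 500 Pa replicate 2, above same-numbered pair 2. All same-numbered values exceeded 0.1, so the numbers were taken to pair the libraries, on this check and the shared numbering alone. With the block 2 residual degrees of freedom remain and edgeR's prior ones were infinite. Calls and SEs of that fit therefore rest on a spread trend shared by all genes. Such an SE does not measure a gene's own spread between pairs. No libraries agreed within sampling noise (chi-square per degree of freedom of 30.0 or more within groups). Replicates are called biological in the labels without further detail, so the spread may be partly technical. Exon length and GC content come from GENCODE 29.

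The genes and lists were chosen with earlier results of these data known. Named besides the 10 genes are pathway genes called in either fit and the 3 of highest mean CPM in each role. Markers and the closest profiles to PTGES and HPGD are also named (PTGS2 did not pass the low-count filter). Others were chosen after their values were seen.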

Additional observations from a re-analysis of the deposited data

How the results depend on the processing

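With stiffness alone edgeR called 0 of 11517 genes, with 282 at an unadjusted p under 0.05. The replicate block called 61, DESeq2 4 and DESeq2 with the block 41. Without a low-count filter 8 were called, with the GC offset 1, and with the block and GC offset 97. Leaving out single libraries gave 0 to 1 call, and leaving out single replicate numbers under the block gave 12 (without 3), 38 (without 1) and 81 (without 2). The causes of these differences were not tested. Other pathway genes had 0 calls under the main fit and all 18 alternatives. Across fits the log2 fold change of PTGS1 ran from 0.93 to 1.83 and that of ABCC4 from 0.74 to 1.63. Of 19 fits PTGS1 was called in 5 and ABCC4 in 3, all of them with the block. PTGES, HPGD, PLA2G4A and PTGER4 changed sign in at least 1 fit. Scaling by library size alone shifted the median log2 fold change of all genes up by 0.16. Of 414 single-gene values under alternatives, 66 changed sign, in 14 of 23 genes. At this depth PTGS2, ALOX5 and ALOX15 stayed under the low-count filter of the main fit. No fold change is given for them from any fit, and a difference in them could be missed. The GC offset covered 95.6% of genes tested.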

Other observations

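The 2 epidermal lipoxygenases of the pathway list, chosen here after their values were seen, were lower at 8000 Pa without overlap between groups. Among all 11517 genes tested, 328 were lower without overlap. Of the 42 other pathway genes tested, 2 were lower and 3 higher without overlap. ALOXE3 had 2.64, 3.06 and 2.79 CPM in 8000 Pa replicates 1, 2 and 3, against 7.93, 3.35 and 6.15 CPM in 500 Pa replicates 1, 2 and 3. ALOX12B, which acts just before ALOXE3 in making the skin's lipid barrier, had 2.48, 5.28 and 4.59 CPM at 8000 Pa, against 5.76, 8.16 and 6.72 CPM at 500 Pa. Their log2 fold changes were -1.05 (SE 0.44) and -0.74 (SE 0.42) with stiffness alone, and neither passed with the block (adjusted p = 0.358 and 0.444 by edgeR). CYP4F3, a leukotriene B4 hydroxylase chosen in the same way, was higher at 8000 Pa in 2 of 3 pairs and overlapped between groups, with 8.31, 12.3 and 6.58 CPM at 8000 Pa against 4.08, 4.58 and 6.86 CPM at 500 Pa. With the block edgeR gave it an adjusted p of 0.383, and its log2 fold change with stiffness alone was 0.82 (SE 0.40).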
